A study of Mus musculus with 7 samples.

Results

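The endoplasmic reticulum (ER) stress response was followed through 10 genes in mouse liver: the sensors Atf6 and Ern1, the transcription factors Xbp1, Atf4 and Ddit3, and the targets Herpud1, Dnajb9, Hspa5, Hsp90b1 and Sdf2l1. They were chosen by symbol, as named parts of the unfolded protein response, out of 16819 genes that the arrays measured with a named probe set, and each was measured by 1 probe set. All mice were Dicer1 fl/fl males, in which both copies of the gene for Dicer, the enzyme that cuts microRNA precursors, carry loxP sites, on a mixed background of 129S4 and C57BL/6. Whole liver was sampled after a 4 hour fast at 0 weeks (control, 3 arrays), and at 2 weeks (2 arrays) and 4 weeks (2 arrays) after AAV8-Ttr-Cre, a liver-directed virus whose transthyretin promoter drives Cre recombinase in hepatocytes, which was given when the mice were 8 to 10 weeks old. No group is labelled as given virus without Cre, and the labels do not say whether the control mice received any virus. The series has no control group at 2 or 4 weeks, so virus, Cre, elapsed time and loss of Dicer1 cannot be told apart. The labels call the arrays biological replicates.

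The unfolded protein response restores the balance between protein entering the ER and the capacity to fold it. Ire1 (gene Ern1) splices Xbp1 mRNA, Perk phosphorylates eIF2alpha and so lets Atf4 be translated, and Atf6 is cut at the Golgi to release a transcription factor. The factors then raise chaperones such as BiP (Hspa5) and Grp94 (Hsp90b1) and the machinery of ER-associated degradation (ERAD), which removes misfolded proteins. Hepatocytes secrete most plasma proteins and have an extensive ER. Splicing, cleavage and translation are not seen in the gene-level signals analysed here.

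Some targets of this response are known to carry ER stress elements in their promoters. Of the 9 members with a promoter sequence, 3 held a match to such an element and the other 6, Dnajb9 and Sdf2l1 among them, held none in this window. These 3 promoters are shown because Herpud1 had the largest change of the 10 genes and group means of Hspa5 and Hsp90b1 leaned oppositely. The sequences run 5′ to 3′ on the strand of the gene, from 250 bases before the start to 50 bases after it, as RefSeq gives them on GRCm38.p6: chr2:34771840-34772139 on the plus strand for Hspa5, chr8:94386179-94386478 on the plus strand for Herpud1 and chr10:86705395-86705694 on the minus strand for Hsp90b1. Capitals mark matches to the ER stress element, ERSE, or to ERSE-II.
Hspa5: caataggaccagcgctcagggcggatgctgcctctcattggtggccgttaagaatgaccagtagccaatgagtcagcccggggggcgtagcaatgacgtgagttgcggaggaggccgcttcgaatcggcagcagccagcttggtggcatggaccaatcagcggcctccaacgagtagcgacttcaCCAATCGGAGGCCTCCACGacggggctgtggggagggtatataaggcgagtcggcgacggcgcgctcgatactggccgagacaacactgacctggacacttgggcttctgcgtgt
Herpud1: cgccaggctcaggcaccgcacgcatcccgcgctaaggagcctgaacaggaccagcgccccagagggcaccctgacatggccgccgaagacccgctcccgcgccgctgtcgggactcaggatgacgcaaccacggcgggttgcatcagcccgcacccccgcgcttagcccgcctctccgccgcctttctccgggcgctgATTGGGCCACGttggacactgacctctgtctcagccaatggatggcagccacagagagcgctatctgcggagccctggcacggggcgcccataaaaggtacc
Hsp90b1: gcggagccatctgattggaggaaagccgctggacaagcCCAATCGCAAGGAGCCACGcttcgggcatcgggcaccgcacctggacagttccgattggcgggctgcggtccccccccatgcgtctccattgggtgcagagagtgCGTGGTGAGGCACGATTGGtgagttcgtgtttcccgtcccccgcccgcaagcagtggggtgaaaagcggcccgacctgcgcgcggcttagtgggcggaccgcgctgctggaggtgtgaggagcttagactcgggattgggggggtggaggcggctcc
The ERSE letters searched were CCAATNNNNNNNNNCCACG, and the ERSE-II letters ATTGGNCCACG, both on either strand. Only matches to every fixed letter were counted, so near matches are neither counted nor marked. By this count Hspa5 held 1 ERSE, 65 to 47 bases before the start. Hsp90b1 held 2, the one nearer the start on the opposite strand, 107 to 89 bases before it. Herpud1 held no ERSE in this window and 1 ERSE-II, 52 to 42 bases before the start. Among 32851 mouse promoters of the same length, 0.119% held an ERSE and 0.0365% an ERSE-II. A shorter core of the unfolded protein response element, TGACGTG, occurred in Hspa5 alone of the 9 members with a promoter sequence and in 2.01% of all promoters. The letters TGATGNAAN, a C/EBP-ATF response element, occurred in Herpud1 alone of these 9 and in 3.95% of all promoters, and all these matches are descriptions of letters, not of binding.

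Before the members are described, 1 array needs naming. At 4 weeks, 20 of 21 ER chaperone and folding genes were higher on replicate 1 than on replicate 2, and Dnajc10 was equal on both. The median absolute difference between these 2 arrays was 0.298 on the log2 scale for the folding genes, against 0.077 for all genes. Results at 4 weeks are therefore given with and without each of these arrays where that matters. Dicer1 signal was 7.79 to 8.05 on the 4 arrays after Cre, against 8.58 to 8.73 on the control arrays, a log2 change of -0.71 (SE 0.07, limma adjusted p = 0.00675). Where its probes lie relative to the floxed exons is not given, so this bears on the labels only as far as they overlap the deleted part. Albumin (Alb) was 14.46 to 14.52 on all 7 arrays.

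Herpud1, which encodes a membrane component of the ERAD complex, had the largest change of the 10 genes. Its log2 signal was 13.03, 13.07 and 13.06 on the control arrays, 11.27 and 11.92 in the 2-week livers, and 12.57 and 11.74 in the 4-week livers. All 4 arrays after Cre lay below all 3 control arrays, and the control arrays lay within 0.05 of each other. Herpud1 was 2.74-fold lower at 2 weeks (log2 change -1.46, SE 0.29, limma adjusted p = 0.0476) and 2.26-fold lower over both times (-1.18, SE 0.24, adjusted p = 0.0325). At 4 weeks alone it did not pass the threshold of an adjusted p under 0.05 (-0.90, SE 0.29, adjusted p = 0.121). The 2-week call was lost when any 1 of the 7 arrays was left out, with log2 changes from -1.78 to -1.13 and adjusted p from 0.0573 to 0.154. The call over both times was lost without any 1 of the control arrays (adjusted p from 0.105 to 0.12), without replicate 1 at 2 weeks (-1.02, adjusted p = 0.0642) and without replicate 2 at 4 weeks (-0.97, adjusted p = 0.07). At 4 weeks the change was -0.48 without replicate 2 and -1.32 without replicate 1. In whole liver, fewer cells of a type and less RNA per cell cannot be told apart.

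Atf6, the sensor that becomes a transcription factor after cleavage, showed a smaller and tighter decrease. Log2 signals were 9.90, 9.80 and 9.97 in control livers, 9.61 and 9.45 in the 2-week livers, and 9.48 and 9.56 in the 4-week livers. Again every array after Cre lay below every control array, and the 2 arrays at 4 weeks differed by only 0.08. Atf6 was 1.29-fold lower at 4 weeks (log2 change -0.37, SE 0.07, limma adjusted p = 0.0397) and 1.29-fold lower over both times (-0.37, SE 0.06, adjusted p = 0.021). The estimate at 2 weeks was of like size (-0.36, SE 0.07) with an adjusted p of 0.0528. Leaving out any 1 control array or either 4-week array ended both calls, with log2 changes from -0.42 to -0.33 at 4 weeks and adjusted p from 0.0713 to 0.17, and over both times adjusted p from 0.0514 to 0.083. Without replicate 1 at 2 weeks the 2-week change became a call (-0.44, adjusted p = 0.0417).

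Ern1, the kinase and endonuclease of the Ire1 arm, did not pass in any comparison. It gave 9.05, 8.80 and 8.91 in control livers, 9.04 and 9.34 in the 2-week livers, and 8.96 and 9.02 in the 4-week livers, so the groups overlapped. Over both times its log2 change was 0.17, with a 95% interval from -0.06 to 0.40 (limma adjusted p = 0.312). This value was 0.25 without replicate 1 at 2 weeks and 0.10 without replicate 2 at 2 weeks.

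Xbp1, whose mRNA Ire1 splices, gave log2 signals of 11.12, 11.01 and 10.92 in control livers, 10.50 and 10.91 in the 2-week livers, and 10.91 and 10.82 in the 4-week livers. Each array after Cre was lower than each control array, but by as little as 0.01. The log2 change over both times was -0.23 (95% interval -0.51 to 0.04, limma adjusted p = 0.248), which did not pass. Without replicate 1 at 2 weeks it was -0.13, and without replicate 2 at 2 weeks -0.34 (adjusted p = 0.0597). The single probe set gives no separate value for spliced Xbp1.

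Atf4 and Ddit3 belong to the Perk arm, Atf4 as the factor whose translation rises when eIF2alpha is phosphorylated and Ddit3 (Chop) as a target linked to cell death. Atf4 gave 8.56, 8.44 and 8.56 in control livers, 8.53 and 8.34 in the 2-week livers, and 8.50 and 8.65 in the 4-week livers. Its log2 change over both times was -0.01, with a 95% interval from -0.19 to 0.16 (limma adjusted p = 0.922). Ddit3 was the dimmest of the members, at 7.25, 6.99 and 6.99 in control livers, 6.99 and 7.10 in the 2-week livers, and 6.99 and 6.80 in the 4-week livers. Its mean of 7.02 lay close to the array medians over all probe sets (7.073 to 7.09), and no detection calls were used. The groups overlapped for both genes, and the Ddit3 interval ran from -0.32 to 0.11 (adjusted p = 0.499). Ddit3 had exactly the same value on 3 arrays and Xbp1 on 2, a feature shared by 9824 of all genes (58.4%).

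**Figure D1:**
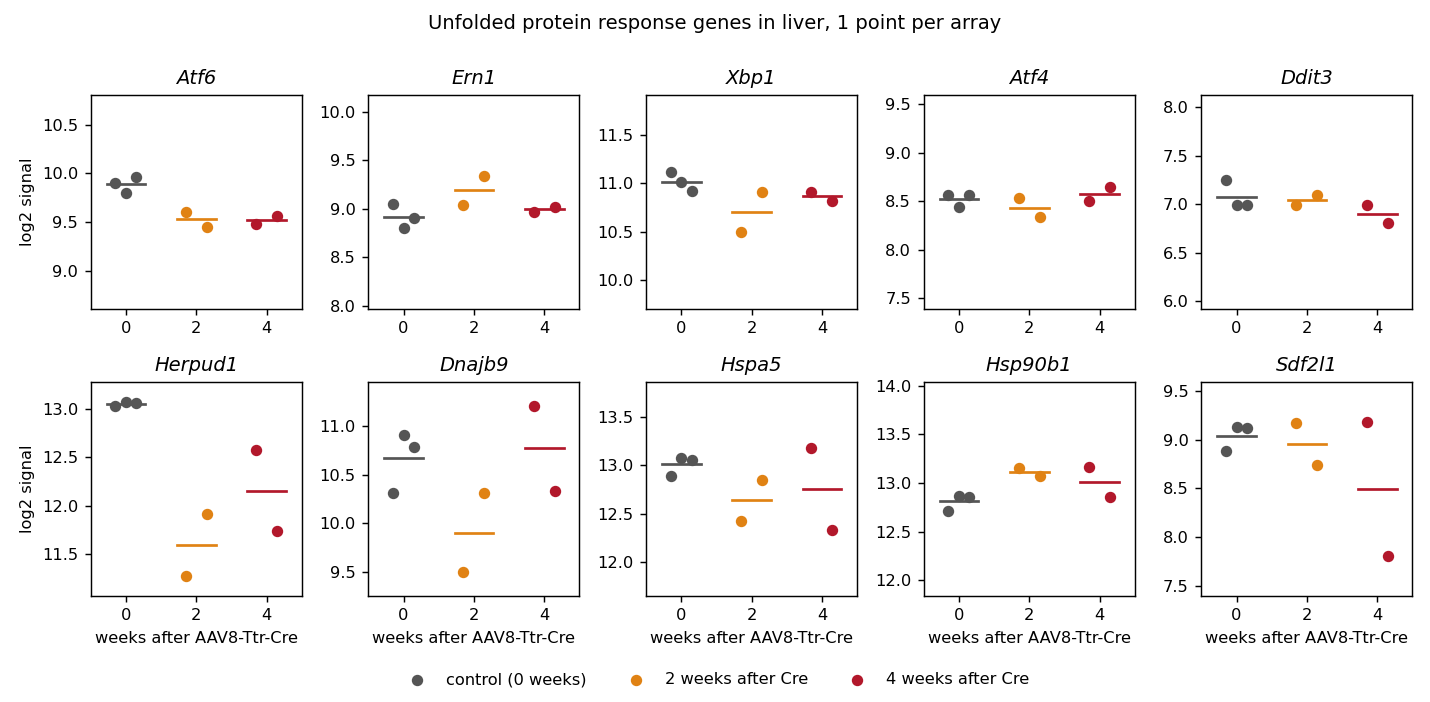
Log2 signal (y axis) of each of the 10 genes on every array, against weeks after AAV8-Ttr-Cre (x axis, with the 3 control arrays at 0). Points are arrays and lines are group means, and every panel spans the same log2 range. Herpud1 and Atf6 after Cre lie wholly below control, and the 2 arrays at 4 weeks lie far apart for Sdf2l1, Dnajb9, Hspa5 and Herpud1.

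The chaperones among the 10 genes gave no call. Hspa5, which encodes BiP, the main Hsp70 chaperone of the ER, gave 12.89, 13.08 and 13.06 in control livers, 12.42 and 12.85 in the 2-week livers, and 13.18 and 12.33 in the 4-week livers. Both 2-week arrays lay below control, whereas at 4 weeks replicate 1 was above and replicate 2 below every control array. Its log2 change did not pass at 2 weeks (-0.37, SE 0.27, limma adjusted p = 0.465) or over both times (-0.31, 95% interval -0.86 to 0.24, adjusted p = 0.44). At 4 weeks the change was -0.25 (limma adjusted p = 0.628), 0.17 without replicate 2 and -0.68 without replicate 1. Its sign at that time thus rested on which array was used. At 2 weeks the change was -0.16 without replicate 1 and -0.59 without replicate 2. Over both times the change ranged from -0.52 without replicate 1 at 4 weeks to -0.10 without replicate 2 at 4 weeks.

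Hsp90b1, the ER member of the Hsp90 family, leaned the other way from Hspa5 in its group means. On the 4-week arrays, however, both genes were higher on replicate 1 than on replicate 2, and replicate 1 was above control for both. It gave 12.71, 12.86 and 12.86 in control livers, 13.16 and 13.07 in the 2-week livers, and 13.16 and 12.86 in the 4-week livers. Both 2-week arrays lay above control, and at 4 weeks replicate 2 fell within the control range. The 4-week log2 change was 0.20 (SE 0.10, limma adjusted p = 0.317), 0.353 without replicate 2 and 0.045 without replicate 1. The log2 change was 0.30 at 2 weeks (SE 0.10, limma adjusted p = 0.156) and 0.25 over both times (95% interval 0.04 to 0.47, adjusted p = 0.128), which did not pass. After quantile normalization the second of these did pass (0.30, adjusted p = 0.0412).

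Dnajb9 (ERdj4), a co-chaperone of BiP that is a target of the Ire1 arm, varied widely within each group. Its log2 signals were 10.31, 10.91 and 10.79 in control livers, 9.50 and 10.31 in the 2-week livers, and 11.21 and 10.33 in the 4-week livers. The lowest of the 7 arrays was thus at 2 weeks and the highest at 4 weeks. The change was -0.76 at 2 weeks (95% interval -1.68 to 0.16, limma adjusted p = 0.295) and 0.10 at 4 weeks (-0.82 to 1.02, adjusted p = 0.912). At 2 weeks the change was -0.35 without replicate 1 and -1.17 without replicate 2. Without replicate 2 the 4-week change was 0.55, and without replicate 1 it was -0.34.

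Sdf2l1, which acts with BiP and its co-chaperones in the ER, owed its lower mean at 4 weeks to 1 array. It gave 8.88, 9.13 and 9.12 in control livers, 9.18 and 8.74 in the 2-week livers, and 9.19 and 7.81 in the 4-week livers. Replicate 1 at 4 weeks was slightly above all control arrays and replicate 2 was the lowest of the 7. The 4-week change was -0.55 (95% interval -1.54 to 0.44, limma adjusted p = 0.471), 0.14 without replicate 2 and -1.24 without replicate 1.

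Across the 10 genes, 0 were called higher and 1 lower at 2 weeks (Herpud1), where 3.46% of all genes were called higher and 2.47% lower. At 4 weeks 0 were called higher and 1 lower (Atf6), against 5.15% and 4.62% of all genes. Over both times 0 were called higher and 2 lower, against 6.79% and 6.12% of all genes. The median log2 change of the 10 genes over both times was -0.27, against 0.00 for all genes. Counted without a test, 3 genes (Herpud1, Atf6 and Xbp1) had all 4 arrays after Cre below all 3 control arrays and 0 had all above, where 12.2% of all genes lay wholly below and 12.9% wholly above. Of the pair of genes whose group means leaned in opposite directions, Hspa5 and Hsp90b1, neither passed.

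**Figure D2:**
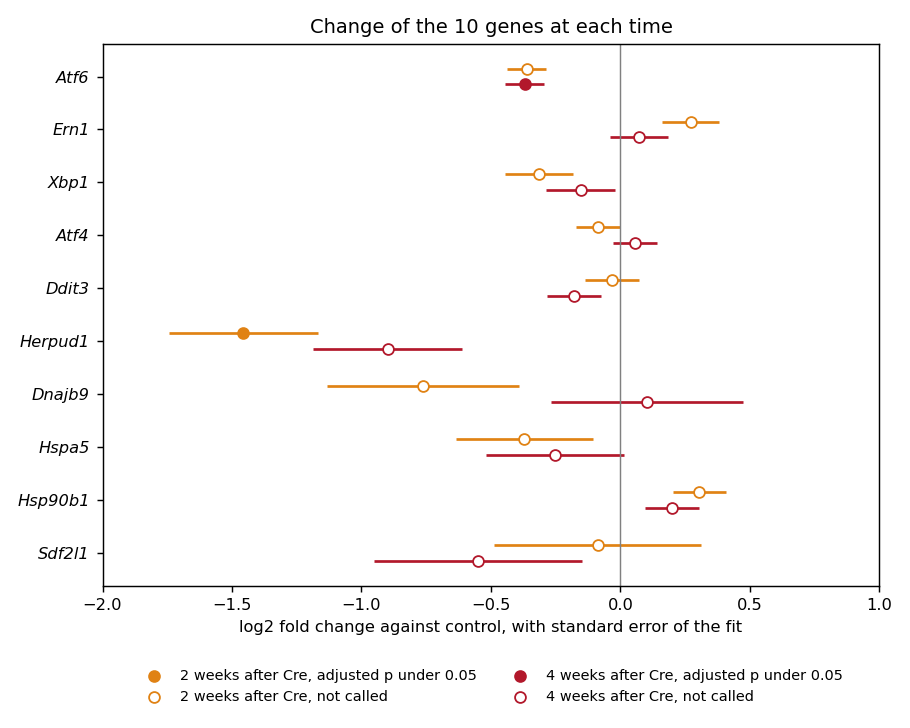
Log2 change against control (x axis) of each gene (y axis) at 2 and 4 weeks after Cre, as fitted by limma. Points are the fitted changes, bars their standard errors, and filled points passed an adjusted p under 0.05. The 2 filled points are Herpud1 at 2 weeks (-1.46) and Atf6 at 4 weeks (-0.37).

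Between 4 and 2 weeks, 0 of the 10 genes passed in either direction. Of all genes, 1 (0.00595%) was called higher at 4 weeks, the clock gene Nr1d1 (log2 difference 2.65, limma adjusted p = 0.0155), and 0% were called lower, with 1250 genes at an unadjusted p under 0.05. None of the members was among those 1250. Dnajb9 had the largest difference of the 10 (0.87, SE 0.41, adjusted p = 0.727), with both 4-week arrays above both 2-week arrays. Herpud1 followed (0.56, SE 0.32, adjusted p = 0.758), with overlapping arrays. Only Ern1 had both 4-week arrays below both 2-week arrays (-0.20, SE 0.12, adjusted p = 0.776). Of all 16819 genes, 2528 had both 4-week arrays above both 2-week arrays and 1951 had both below, so 1 of 10 members each way is near those shares.

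The spread between the 2 livers at 4 weeks fell on particular members. Replicate 1 exceeded replicate 2 by 1.38 on the log2 scale for Sdf2l1, a difference that 0.202% of all genes reached or passed. It exceeded replicate 2 by 0.88 for Dnajb9 (0.66% of all genes), 0.85 for Hspa5 (0.702%) and 0.83 for Herpud1 (0.737%). For the sensors and factors the 2 livers lay closer, at absolute differences of 0.05 for Ern1, 0.08 for Atf6, 0.10 for Xbp1, 0.15 for Atf4 and 0.19 for Ddit3. Chaperone genes outside the 10 showed the same order of livers. Creld2, an ER protein induced by ER stress, was 1.55 higher on replicate 1, Manf, a secreted factor that binds BiP, 0.93 higher, and Hyou1 (Grp170), a nucleotide exchange factor for BiP, 0.91 higher. Among ERAD genes, Derl3 was 0.86 higher on replicate 1, the ubiquitin ligase Syvn1 (Hrd1) 0.77 higher and its partner Sel1l 0.59 higher. In all, 14 of 19 ERAD genes were higher on replicate 1 and 4 on replicate 2 (Ufd1, Faf2, Herpud2 and Nploc4), and 13 of 15 translocon and signal peptidase genes were higher on replicate 1 and 2 on replicate 2. Over all genes, 7189 were higher on replicate 1 and 7493 on replicate 2.

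At 2 weeks the spread took another form. The median absolute difference of the 10 genes between those 2 livers was 0.356, against 0.11 for all genes. Replicate 2 was the higher for Dnajb9 (by 0.82), Herpud1 (by 0.64), Hspa5 (by 0.43) and Xbp1 (by 0.42), while replicate 1 was the higher for Sdf2l1 (by 0.43) and Derl3 (by 1.35). Of the 21 folding genes 13 were higher on replicate 1 and 7 on replicate 2. These contrasts are between single livers and have no test.

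**Figure D3:**
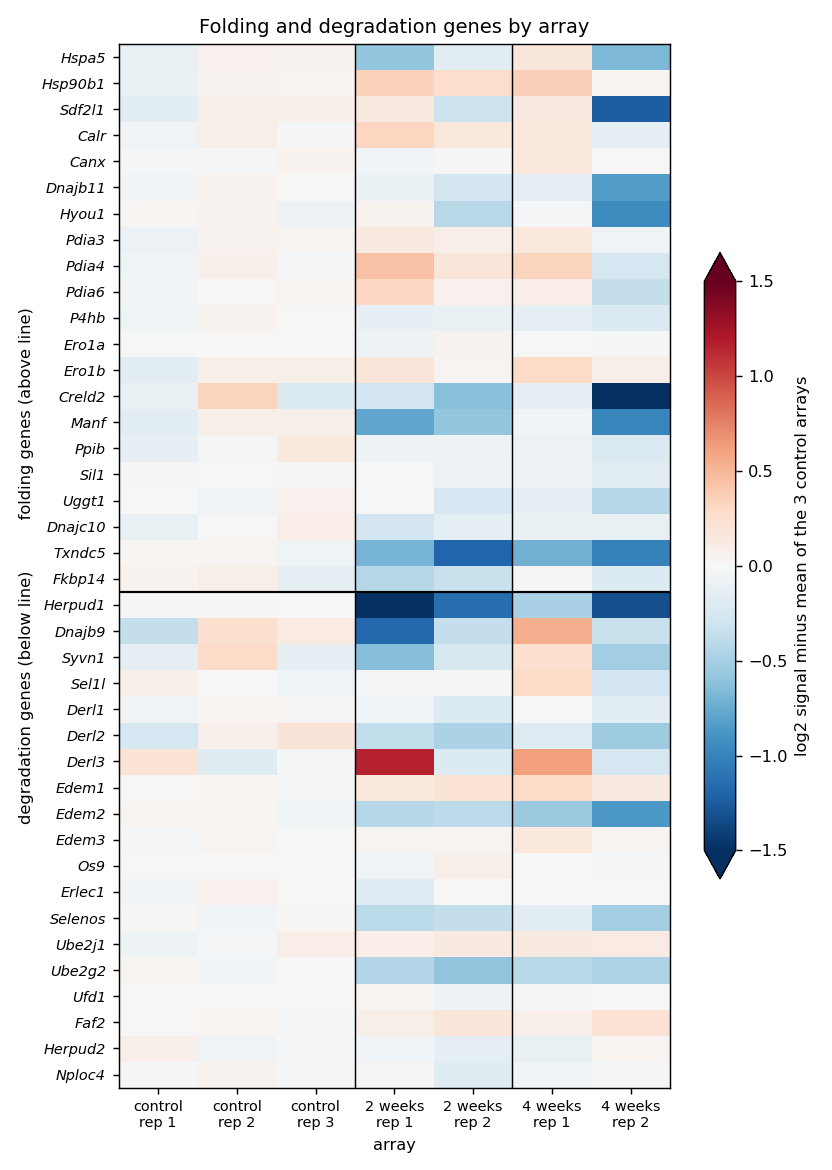
Log2 signal minus the mean of the 3 control arrays (colour scale, clipped at 1.5) for the ER folding genes (above the line) and the ERAD genes (below it), with 1 column per array. The column of replicate 2 at 4 weeks is the bluest, with Creld2, Sdf2l1, Hyou1, Manf and Hspa5 below control, and Herpud1, Edem2, Txndc5 and Ube2g2 are below control in all 4 columns after Cre.

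The list of ER chaperones and folding enzymes, which includes Hspa5, Hsp90b1 and Sdf2l1, had 0 of 21 genes higher and 1 lower over both times, where 6.79% of all genes were called higher and 6.12% lower. The 1 call was the disulfide isomerase family member Txndc5. It was lower at 2 weeks (log2 change -0.94, limma adjusted p = 0.0358) and at 4 weeks (-0.87, adjusted p = 0.0323), and each of its 4 arrays after Cre, between 9.75 and 10.24, lay below the control arrays, between 10.88 and 10.98. The median change of the 21 genes, these 3 members among them, was -0.15 (all genes 0.00). Txndc5 was the 1 call at each time, where 2.47% of all genes were lower at 2 weeks and 4.62% at 4 weeks. For ERAD, 0 of 19 genes, Herpud1 and Dnajb9 among them, rose and 4 fell over both times, again beside 6.12% of all genes lower: Herpud1, the ubiquitin-conjugating enzyme Ube2g2 (-0.47, adjusted p = 0.00742), Edem2 (-0.56, adjusted p = 0.0139), which starts the trimming of glycans on misfolded proteins, and Selenos (-0.36, adjusted p = 0.0452), a selenoprotein of the ERAD complex. Herpud1 and Ube2g2 were called at 2 weeks (2.47% of all genes lower), and Ube2g2 and Edem2 at 4 weeks (4.62% of all genes lower). The lectin Os9 (0.01, adjusted p = 0.929) and Sel1l (-0.01, adjusted p = 0.969), the brightest ERAD genes that did not pass, had changes near 0.

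In the Perk and integrated stress response list, 2 of 26 genes were called higher and 2 lower over both times. These shares of calls were near those of all genes (6.79% higher and 6.12% lower). Counted without a test, 6 of the 26 had all 4 arrays after Cre above all 3 control arrays and 2 had all below. Of all genes, 12.9% lay wholly above and 12.2% wholly below. Eif2ak1, the haem-regulated eIF2alpha kinase, rose (0.49, limma adjusted p = 0.00607), as did Chac1, a glutathione-degrading enzyme and Atf4 target (0.48, adjusted p = 0.0432). Eif4ebp1, a repressor of cap-dependent translation, fell (-0.85, adjusted p = 0.00597), and so did the transcription factor Cebpb (-1.03, adjusted p = 0.0175). At 2 weeks Eif2ak1 rose and Eif4ebp1 fell, where 3.46% of all genes were called higher and 2.47% lower. At 4 weeks Eif2ak1 rose while Eif4ebp1 and Cebpb fell, beside 5.15% of all genes higher and 4.62% lower. Slc3a2, an amino acid transporter subunit (0.29, adjusted p = 0.0652), and Ppp1r15b, which guides eIF2alpha dephosphorylation (0.18, adjusted p = 0.0693), were the brightest that did not pass.

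In the Ire1 and Xbp1 list, 0 of 12 rose and 2 fell over both times, where 6.79% of all genes were called higher and 6.12% lower. The 2 were Sec61a1, the channel subunit of the translocon (-0.33, limma adjusted p = 0.0143), and Bloc1s1, whose mRNA Ire1 is known to cut (-0.43, adjusted p = 0.0476). Sec61a1 was the 1 call at each time, where 2.47% of all genes were lower at 2 weeks and 4.62% at 4 weeks. Edem1, a target of Xbp1, had a change of 0.20 (adjusted p = 0.0537). In the Atf6 list, Atf6 fell and Nfyb, a subunit of the factor NF-Y that binds the CCAAT letters of the ERSE, rose (0.43, adjusted p = 0.0105), out of 11 genes. These counts of 1 lower and 1 higher are near the shares of all genes (6.12% and 6.79%). At 4 weeks Yy1, a factor known to act with Atf6 on such promoters, also rose (0.25, adjusted p = 0.0405), where 5.15% of all genes were called higher. Creb3l3, a liver-rich factor activated by cleavage like Atf6, had a change of 0.06 (adjusted p = 0.311), and the protease that cuts them, Mbtps1, -0.01 (adjusted p = 0.902).

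The ER translocon and signal peptidase list had the highest share of calls among the ER and stress lists, with 0 of 15 genes higher and 7 lower over both times, where 6.12% of all genes were lower. The counts were 0 higher and 4 lower at 2 weeks (2.47% of all genes lower) and 0 higher and 6 lower at 4 weeks (4.62% of all genes lower). The catalytic signal peptidase subunits Sec11a (-0.52, limma adjusted p = 0.00779) and Sec11c (-0.54, adjusted p = 0.0213) fell, as did the accessory subunit Spcs1 (-0.36, adjusted p = 0.0149). Srprb, which anchors the receptor of the signal recognition particle, fell as well (-0.60, adjusted p = 0.0133). So did Ssr4 (-0.68, adjusted p = 0.0248), of the translocon-associated complex. Ssr3, of the same complex, was the seventh call (-0.49, adjusted p = 0.0364) and is named outside the rule of 6 genes a list. Sec61a1, already counted in the Ire1 and Xbp1 list, was also among the 7. The median change of the 15 genes was -0.22 (all genes 0.00), and 9 of them, against 12.2% of all genes, had all 4 arrays after Cre below all 3 control arrays. With 1 control array left out the count over both times was 1 to 3, with replicate 1 or 2 at 4 weeks left out 3 and 2, and with replicate 1 or 2 at 2 weeks left out 6 and 5. At 2 weeks it was 0 without any 1 control array or either 4-week array, 5 without replicate 1 and 1 without replicate 2 of that time. At 4 weeks it was 0 without any 1 control array or either array of that time.

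**Figure D4:**
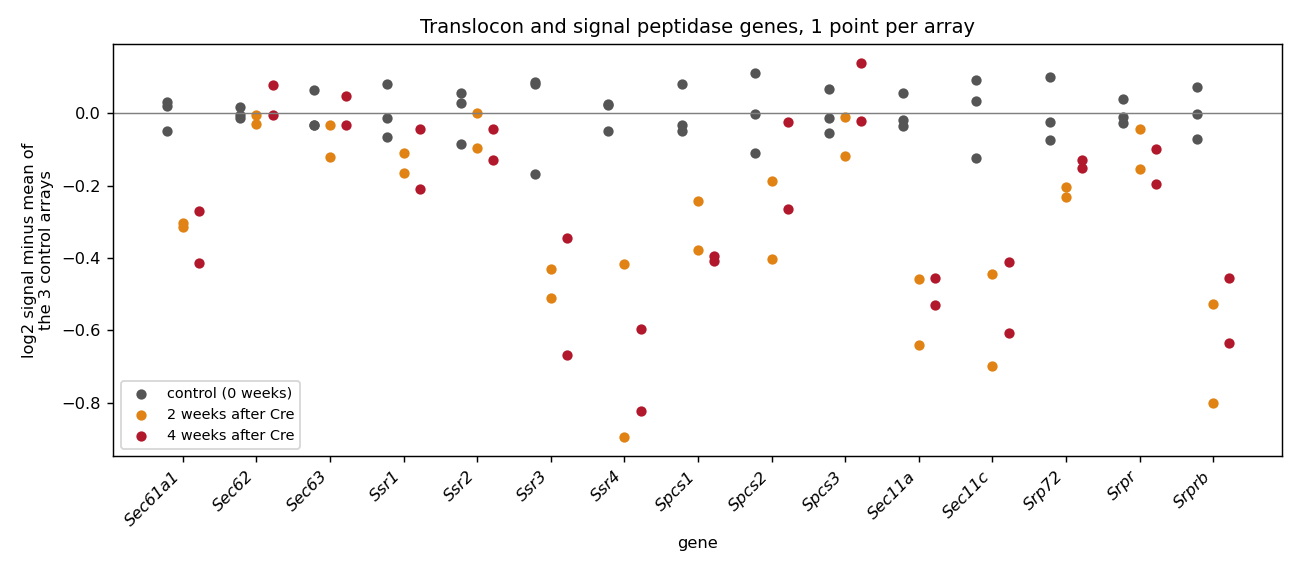
Log2 signal minus the mean of the 3 control arrays (y axis) for the 15 translocon and signal peptidase genes (x axis), with 1 point per array coloured by group. For Sec61a1, Ssr3, Ssr4, Spcs1, Sec11a, Sec11c and Srprb, the 7 genes called lower, all 4 arrays after Cre lie below the control arrays.

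In the cytosolic heat shock list, 0 of 8 genes rose and 1 fell over both times (6.12% of all genes lower). This was Dnajb1 (Hsp40, -0.84, limma adjusted p = 0.0119). It also fell at 2 weeks (-0.81, where 2.47% of all genes were lower) and at 4 weeks (-0.87, where 4.62% were). The median change of the 8 genes over both times was -0.51 (all genes 0.00), and 4 of the 8 lay wholly below control, against 12.2% of all genes. Of the cell death effectors linked to ER stress, 1 of 8 rose over both times, Bak1, which forms pores in the mitochondrial outer membrane (0.58, adjusted p = 0.0392), where 6.79% of all genes were called higher, and 0 fell, with 0 calls at 2 or at 4 weeks. Tmbim6, an inhibitor of Bax in the ER membrane, had a change of -0.05 (adjusted p = 0.518).

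**Figure D5:**
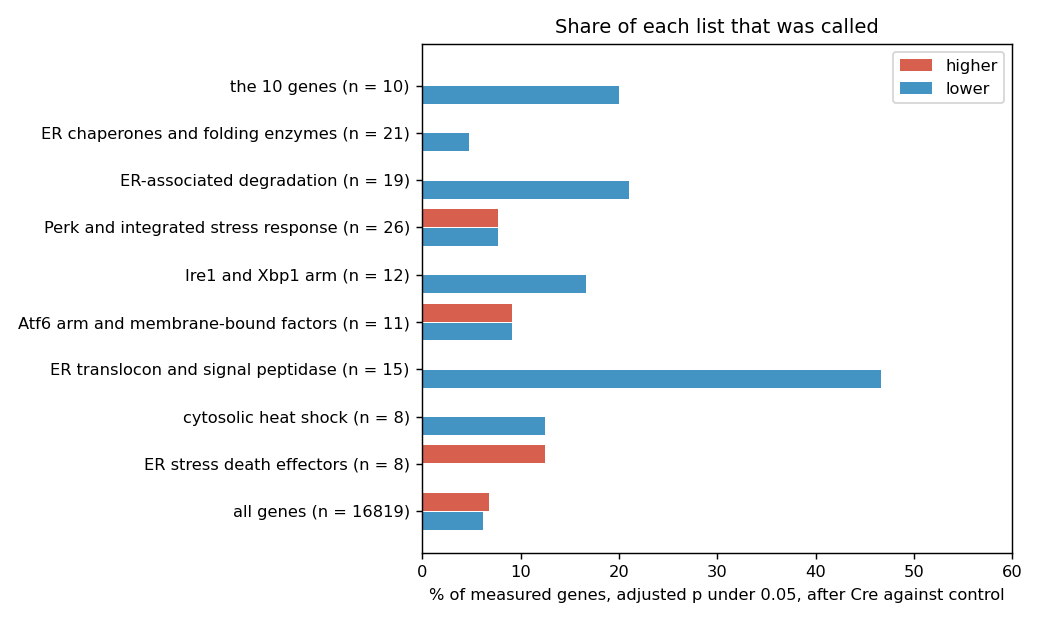
Percentage of the measured genes of each list (x axis) that passed an adjusted p under 0.05 in the comparison of both times after Cre with control, higher in red and lower in blue, with the share of all genes at the bottom. Of the ER and stress lists drawn, the translocon and signal peptidase list has the longest bar, with 7 of 15 genes lower, and the 10 genes have 2 lower and 0 higher.

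Other measured quantities moved between the same groups. In the circadian clock list, 3 of 14 genes were called higher and 7 lower over both times, against 6.79% and 6.12% of all genes. Among them were Arntl (1.82, limma adjusted p = 0.00363) and Dbp (-2.04, adjusted p = 0.00254). The counts were 2 higher and 6 lower at 2 weeks (3.46% and 2.47% of all genes). At 4 weeks they were 3 higher and 6 lower (5.15% and 4.62% of all genes). The hour of harvest is not given in the labels, and the part of clock phase in the changes of Herpud1 and Atf6 was not tested. Among cell type markers, calls over both times were the hepatocyte gene Tat (-0.62, adjusted p = 0.0334, 1 of 8 markers), the stellate cell gene Pdgfrb (0.31, adjusted p = 0.0238, 1 of 8) and the bile duct gene Sox9 (0.37, adjusted p = 0.0298, 1 of 4). At 4 weeks Sox9 (0.43, adjusted p = 0.0401) and the sinusoidal endothelial gene Clec4g (0.60, adjusted p = 0.0438, 1 of 7) were called, and at 2 weeks 0 markers were. These marker counts stand beside 6.79% of all genes higher and 6.12% lower over both times, and 5.15% higher at 4 weeks. Macrophage, lymphocyte and plasma cell, and neutrophil markers gave 0 calls of 8, 7 and 5.

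Summed on the linear signal scale, the 8 hepatocyte markers reached 117000 to 119000 at 2 weeks and 117000 to 120000 at 4 weeks, against 122000 to 128000 in control livers. Stellate markers summed to 5350 to 5900 at 2 weeks and 5090 to 5540 at 4 weeks, against 4520 to 4810 in control livers. Endothelial markers summed to 4370 to 5100 at 2 weeks and 5680 to 6570 at 4 weeks, against 4690 to 4850 in control livers. Bile duct markers summed to 495 to 549 at 2 weeks and 527 to 556 at 4 weeks, against 445 to 485. The sums for macrophages were 2800 to 3750 and 2840 to 3770, against 2860 to 3460 in control livers. Those for lymphocytes and plasma cells were 495 to 504 and 477 to 506, against 479 to 499, and those for neutrophils 298 to 300 and 297 to 303, against 290 to 306. Linear sums follow the brightest genes of a list, so they need not reflect numbers of cells. Tat (-0.62 over both times), Clec4g (0.60 at 4 weeks) and Dcn (0.25 over both times, not called) are bright genes of the hepatocyte, endothelial and stellate lists. The median log2 change over both times was -0.004 for hepatocyte, 0.127 for endothelial and 0.159 for stellate markers, against 0.003 for all genes. The part of these cell types in the values of the 10 genes was not tested.

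The genes whose profiles over the 7 arrays were most like those of the members were found by Pearson correlation, given without a test because the arrays share the 3 groups. Nearest to Hspa5 were Nktr (r = 0.985), Ugt3a1 (0.969), Alg12 (0.968), Brip1os (0.958) and Entpd7 (0.940). Alg12 encodes a mannosyltransferase that builds N-glycan precursors in the ER. Nearest to Herpud1 were Tob2 (0.978), Uap1 (0.975), Csnk1g3 (0.975), Arg1 (0.971) and Prmt9 (0.970). Uap1 makes the UDP-linked N-acetylglucosamine used for glycans, and Arg1 is the urea cycle arginase. Nearest to Atf6 were Ryk (0.998), Glrx2 (0.993), Tspan31 (0.992), Egln2 (0.991) and Eif1b (0.990). None of these 15 genes was in the lists above.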

How the data were processed

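Total liver RNA was labelled with biotin for Affymetrix whole-transcript arrays, per the labels' protocols. The authors deposited 1 value per probe set and array on a log2 scale, read from the values (3.15 to 14.7). The submitters' processing notes list GCOS 1.4 and do not say for which step, and for background correction, summarisation and normalization the method was not given in the sources used here. Array medians lay between 7.073 and 7.09. The number of arrays limits the precision.

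Of 21093 probe sets, 17709 had 1 gene symbol in GEO's platform annotation, 187 several and 3197 none. Of those with 1 symbol, 17648 matched RefSeq (GRCm38.p6). For the 463 genes with several probe sets the brightest was kept, which gave 16819 genes.

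A limma fit (version 3.58.1, R 4.3.3) gave each of the 3 groups a mean over all 7 arrays, with 4 residual and 1.69 prior degrees of freedom. The 4 contrasts were 2 weeks, 4 weeks and the mean of both against control, and 4 against 2 weeks. Tests were two-sided with Benjamini-Hochberg adjustment over all genes, and a gene was called at an adjusted p under 0.05. The fit was run on simulated data with planted changes, which checked the size of the estimates and not the calls. The members and lists were chosen with earlier results of these data known. The text names every member, up to 6 called genes per list and contrast (smallest adjusted p) and up to 2 uncalled genes of highest mean, the 5 genes most like Hspa5 and each called member, Dicer1 and any called cell type marker. The genes shown for the spread between arrays were chosen after their values were seen. The labels do not say that replicate numbers pair the arrays. Differences of replicate 1 minus replicate 2 over all genes correlated at 0.004, -0.074 and 0.111 between groups, with control replicate 3 unused. These values cannot show that no pairing or batch existed.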

Additional observations from a re-analysis of the deposited data

Results flagged for a closer look

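In the cytosolic heat shock list, 2 genes had both arrays of one time below the control mean and both arrays of the other time above it. Hspa8, the constitutive cytosolic Hsp70, had a log2 change against control of 0.05 at 4 weeks and -1.24 at 2 weeks, a difference between the times of 1.29 (limma adjusted p = 0.67). Hspa4l, an Hsp110 relative, had a change of -0.26 at 4 weeks and 0.50 at 2 weeks, a difference of -0.76 (adjusted p = 0.451). Neither difference passed.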

How the results depend on the processing

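Each result was recomputed under 14 alternatives, 7 of which left out 1 array. Values of the members and Dicer1 gave 0 reversals of a called change and 23 changes of sign in uncalled values. Of all the recomputed values of these genes, 557 kept their side of the threshold, 43 lost a call and 5 gained one. Both times against control use all arrays, so restricting the arrays gave no value there. Of the members' calls lower, the count at 2 weeks was 2 after quantile normalization, with each array centred on its median or without the dimmest 25% of genes, and 0 with all probe sets tested or with only the groups compared. Over both times quantile normalization gave 1 member higher. With only the groups compared, all genes called at 2 weeks were 171 higher and 105 lower, those at 4 against 2 weeks were 0 higher, and translocon genes lower at 2 weeks were 0. The replicate block gave 0 members lower at 2 weeks, at 4 weeks and over both times, and 0 translocon genes lower in each. Under this block all genes called were 0 higher and 0 lower at 2 weeks, 1 and 1 at 4 weeks, 2 and 3 over both times, and 0 higher at 4 against 2 weeks. A pairing by replicate number was neither labelled nor excluded, and this block removes degrees of freedom.

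Leaving out 1 array at a time, members called lower ranged from 0 to 1 at 2 weeks, 0 to 1 at 4 weeks and 0 to 2 over both times. All genes called ranged from 24 to 1091 higher and 17 to 1077 lower at 2 weeks, 37 to 1001 higher and 26 to 947 lower at 4 weeks, and 333 to 1426 higher and 219 to 1362 lower over both times. Between 4 and 2 weeks the range was 0 to 0 higher. Translocon genes lower ranged from 0 to 5 at 2 weeks, 0 to 6 at 4 weeks and 1 to 6 over both times. Where a group was left with 1 array, that array was assumed to vary like the others. The scaling alternatives moved the median of all genes by at most 0.014. With 2 arrays in a group, changes of Dnajb9, Hspa5 and Sdf2l1 within the spread between arrays were not detectable.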

Other observations

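Asns, the asparagine synthetase and an Atf4 target, had the widest swings in the integrated stress response list. Its log2 signal was 8.94, 8.94 and 10.94 in control livers, 8.60 and 8.79 in the 2-week livers, and 6.74 and 10.53 in the 4-week livers. At 4 weeks replicate 2 was thus the brighter array for Asns and the dimmer for Hspa5 and Sdf2l1. Trib3, a pseudokinase induced through Atf4, had exactly 7.51 on 6 of the 7 arrays and 7.30 on replicate 1 at 2 weeks.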
